A study of Mus musculus with 10 samples.

Results

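The 8 genes described here encode the paired subunits that distinguish the progenitor from the neuronal form of BAF, the mammalian SWI/SNF chromatin remodeller. The members were set by name. *Actl6a*, *Ss18*, *Phf10* and *Dpf2* form the progenitor side, and *Actl6b*, *Ss18l1*, *Dpf1* and *Dpf3* form the neuronal side. All 8 were found among the 18444 genes of the deposited table by their Ensembl identifiers, and all 8 passed the filter on low values (a mean of at least 10 normalised counts), which 17020 genes passed. Poly-A mRNA was sequenced from the whole brain of C57BL/6N males on postnatal day 3. There were 5 HT libraries, from mice heterozygous for *Arid1b*, and 5 WT libraries, from mice without the edited allele. The study describes the samples of each genotype as separate mice. Per the study's methods, the HT allele comes from a single CRISPR-edited line in which a "TT" insertion replaced exon 5 and its flanks, and all pups came from heterozygous fathers and WT mothers. The edit was present in the germline, so every cell type of the HT brain carried it.

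BAF complexes slide or evict nucleosomes with the energy of ATP and are assembled around one of 2 related ATPases. When neural progenitors leave the cell cycle, several positions of the complex are handed from one gene product to its relative. The actin-related subunit BAF53A (*Actl6a*) gives way to BAF53B (*Actl6b*), the SS18 subunit gives way to CREST (*Ss18l1*), and the double PHD finger subunits BAF45A (*Phf10*) and BAF45D (*Dpf2*) are joined or replaced by BAF45B (*Dpf1*) and BAF45C (*Dpf3*). ARID1B, the product of the edited gene, sits in both forms. At postnatal day 3 most forebrain neurons are postmitotic, whereas progenitors persist in the ventricular zones, the dentate gyrus and the cerebellum. A whole brain therefore holds both forms, and in these bulk libraries fewer cells of a type and less RNA per cell cannot be told apart. A single age was measured, so that the values give the position of the brain along the switch and not its course.

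In the best known arm of the switch, the repressor REST holds down neuronal genes and the miR-9 and miR-124 microRNAs in progenitors, and these microRNAs repress *Actl6a* once REST is lost. Sequences of that arm are shown because they connect *Actl6a* with its regulators. The microRNAs are from RefSeq (GRCm38.p6) and the 3′ UTRs from GENCODE M21 (GRCm38). Both arms of miR-9 come from 3 hairpin genes, *Mir9-1* on chromosome 3, *Mir9-2* on chromosome 13 and *Mir9-3* on chromosome 7. Capitals mark the seed (bases 2 to 8) in the microRNAs and the letters complementary to that seed in the transcripts.
mmu-miR-9-3p: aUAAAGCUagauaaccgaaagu
mmu-miR-9-5p: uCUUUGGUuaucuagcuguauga
*Actl6a* 3′ UTR, plus strand, chr3:32726628-32726657: ctcaacgtctgtAGCTTTAgtacactcagg
*Rest* 3′ UTR, plus strand, chr5:77286164-77286193: tttctgaggcaaACCAAAGgtatatttctc

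The miR-9-3p seed match AGCTTTA occurred 1 time in the 371-base 3′ UTR of the longest coding *Actl6a* transcript, starting at UTR base 38. It occurred in none of the 3′ UTRs of the other 7 subunit genes, which ranged from 90 bases (*Phf10*) to 3087 bases (*Ss18*). Among tested genes with a 3′ UTR of 300 to 450 bases, 2.40% of 1123 held this match on the transcript strand, and 12.8% of all 14758 annotated 3′ UTRs did. The miR-9-5p match ACCAAAG occurred 1 time in the *Rest* 3′ UTR and in 27.3% of 1139 UTRs of 3000 to 4000 bases. A match is a description of the letters and is not evidence of repression in these libraries, in which microRNAs were not measured. The mature miR-124 sequence was not used here.

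Totals per library ran from 27244000 to 29032000 normalised counts, and 1 read was worth close to 1 normalised count (0.909 to 1.13 by the spacing of small values). The edited gene *Arid1b* was lower in each HT library (1505 to 2372 normalised counts) than in each WT library (3108 to 3597). HT 4 stood apart from the other libraries. Its genes lay at a median distance of 0.209 log2 units from their 10-library mean, where the other 9 libraries had 0.0772 to 0.108. Genes with the shortest transcripts were raised (median 0.27 over the shortest 10%) and those with the longest were lowered (-0.34 over the longest 10%). The comparisons of genotypes are therefore given with and without HT 4.

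Both forms of every pair were present in all 10 libraries, and the neuronal form led at 2 of the 3 positions of the complex. Levels of different genes were compared as normalised counts per kilobase of transcript. With the median length of annotated coding transcripts, *Actl6b* was the highest of the 8 in WT at 5574 ± 406 per kilobase (SD, n = 5), followed by *Dpf1* at 1922 ± 56.5, *Phf10* at 1244 ± 38.6, *Ss18l1* at 739 ± 25, *Dpf2* at 609 ± 28.3, *Actl6a* at 508 ± 48.0, *Ss18* at 346 ± 15.7 and *Dpf3* at 219.8 ± 39.96. Over the 10 libraries the ranges of *Dpf2* (584 to 651) and *Actl6a* (402 to 595) overlapped, whereas *Ss18l1* (654 to 781) lay just above *Dpf2*, and the other neighbours in this order were separate. *Actl6b* stood at the 97.3 percentile of 17008 tested genes with a length, and *Dpf3* at the 47.1 percentile.

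The order depended in part on which length was used, because the coding transcripts annotated for *Actl6b* include fragments with a median of 508 bases against a longest of 1592. With the longest coding transcript, *Actl6b* remained highest in WT (1779 ± 129 per kilobase), and *Dpf1* (1302 ± 38.2) and *Phf10* (1244 ± 38.6) overlapped, as did *Ss18* (243 ± 10.97) and *Actl6a* (233 ± 22.0). With the union of exons, *Ss18l1* (739 ± 25) lay above *Actl6b* (664 ± 48.3) with overlapping ranges. *Dpf3*, a BAF45 form known from heart and muscle as well as neurons, was the lowest of the 8 under each length, at 90.9 ± 16.5 and 67.4 ± 12.3 per kilobase in WT with the latter 2 lengths (SD, n = 5 each).

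**Figure D1:**
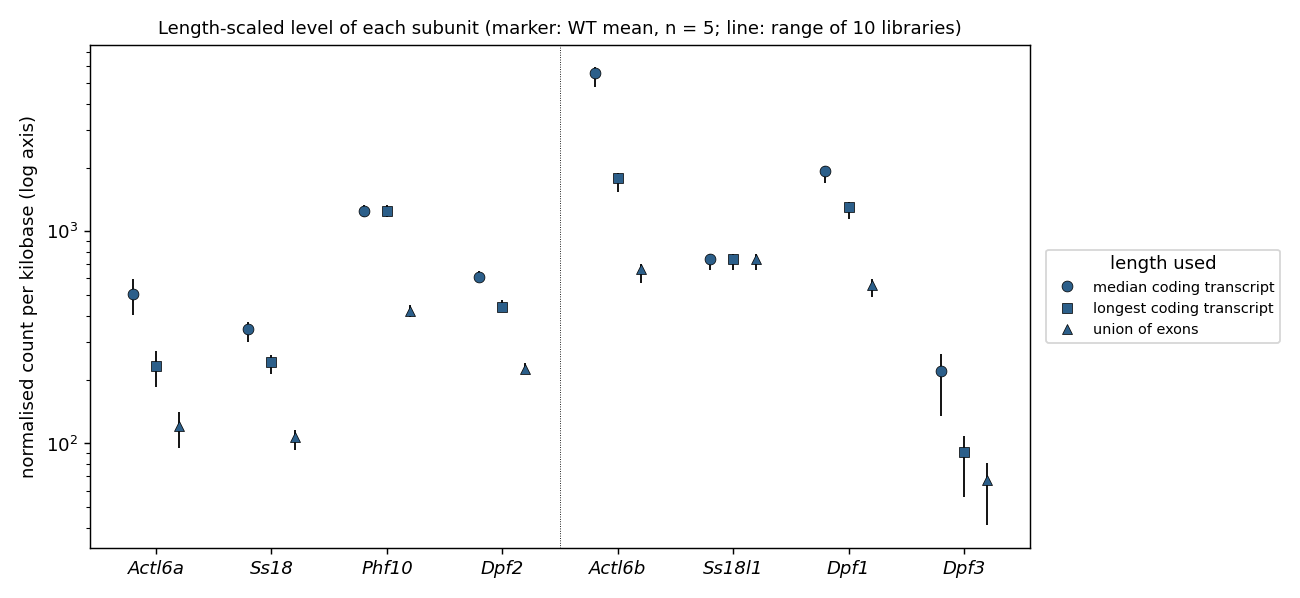
Level of each subunit gene in normalised counts per kilobase (log axis) with 3 definitions of transcript length. Markers are WT means (n = 5) and lines the range over 10 libraries. *Actl6b* lies above *Actl6a* and *Ss18l1* above *Ss18* under each length, and *Dpf3* is lowest of the 8.

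As a share of the summed level of each pair, BAF53B (*Actl6b*) made up 91.6% ± 1.15 of the BAF53 transcripts in WT and 92.3% ± 1.1 in HT (SD, n = 5 per genotype). CREST (*Ss18l1*) made up 68.1% ± 1.35 of the SS18 position in WT and 68.9% ± 3.19 in HT. The BAF45 position was close to even, with *Dpf1* and *Dpf3* together at 53.6% ± 1.06 in WT and 52.997% ± 1.42 in HT. With the other lengths the BAF53 share in WT was 88.4% or 84.6%, the SS18 share 75.3% or 87.3%, and the BAF45 share 45.2% or 49.2%. The neuronal form was thus the larger one at the BAF53 and SS18 positions under each length, and which side led at the BAF45 position depended on the length. Within BAF45 in WT, *Dpf1* held 48.1% ± 1.34, *Phf10* 31.1% ± 0.752, *Dpf2* 15.2% ± 0.609 and *Dpf3* 5.51% ± 1.04 with the median length. HT 4 had the lowest SS18 share (63.6%, against 66.2% to 72.1% in the other 9) and the lowest BAF45 share (50.95%, against 52.1% to 55.2%). Without it the HT shares were 92.8% ± 0.457 for BAF53, 70.3% ± 1.34 for SS18 and 53.5% ± 0.963 for BAF45 (SD, n = 4).

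The comparison of HT with WT asked whether loss of 1 *Arid1b* allele moved either side of the switch. None of the 8 genes had a limma adjusted p under 0.05, and none had an unadjusted p under 0.05. Across all 17020 genes, 0% had an adjusted p under 0.05 and 3.41% an unadjusted one. The groups overlapped for each of the 8 genes, and did not for 0.629% of all genes. The log2 fold change was below 0 for 6 of 8 members and for 53.6% of all genes, with a median of -0.029 over the members and -0.0074 over all genes. Without HT 4 it was below 0 for 4 of 8 members and 50.4% of all genes. By limma, *Actl6a* was then the only member with an unadjusted p under 0.05, where 8.40% of all genes had one and 0.0118% (2 genes) an adjusted one.

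*Actl6a* (ENSMUSG00000027671; GRCm38 chromosome 3, 32706298 to 32726973, plus strand) encodes BAF53A, the actin-related subunit that progenitors need to keep dividing. Its normalised counts were 373, 394, 371, 548 and 399 in HT 1 to HT 5, and 509, 481, 501, 448 and 401 in WT 1 to WT 5. HT 4 was the highest of all libraries, and the other 4 HT libraries lay below each WT library, the closest being HT 5 and WT 5 (398.95 and 401.2 before rounding). With all libraries the log2 fold change was -0.18 ± 0.11 (SE; 95% interval -0.42 to 0.062; limma adjusted p 0.9997; exact permutation p 0.183). Without HT 4 it was -0.28 ± 0.080 (95% interval -0.45 to -0.11), with an unadjusted limma p of 0.00345, an adjusted p of 0.446 and an exact permutation p of 0.0159. In that fit 119 genes had a smaller p, and 1.21% of all genes had HT libraries entirely below WT. Of the 31-base words of its coding transcripts, 18.5% were shared with *Mrpl47* on the opposite strand, and that gene, a mitochondrial ribosomal protein, had a log2 fold change of -0.052 (unadjusted limma p 0.523).

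*Actl6b* (ENSMUSG00000029712; chromosome 5, 137553517 to 137569582, plus strand) encodes BAF53B, which is confined to neurons and is needed for dendrite growth and memory. It had 2444, 3009.5, 2569, 2879 and 2949 normalised counts in HT 1 to HT 5, and 2955, 2782, 2490.5, 2961 and 2969.8 in WT 1 to WT 5. The groups covered nearly the same range, and HT 4 lay within it at 105% of the mean of the other HT libraries. Its log2 fold change was -0.033 ± 0.071 (SE; 95% interval -0.19 to 0.12; exact permutation p 0.714), and -0.048 ± 0.070 without HT 4 (exact permutation p 0.563).

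*Ss18* (ENSMUSG00000037013; chromosome 18, 14624198 to 14682914, minus strand) encodes the progenitor form of a subunit best known from the SS18-SSX fusion of synovial sarcoma. Its normalised counts were 958, 955, 978, 1088 and 879 in HT 1 to HT 5, and 1081, 1012, 959, 998 and 986 in WT 1 to WT 5. As for *Actl6a*, HT 4 was the highest of the 10 libraries. HT differed from WT by -0.055 ± 0.062 on the log2 scale (SE) with all libraries and -0.096 ± 0.054 without HT 4. The exact permutation p, not adjusted over the 8 genes, was 0.325 and 0.0317. Without HT 4 the limma p was 0.0973 unadjusted and 0.666 adjusted. A share of 13.8% of its 31-base words also occurred in *Gm1826*, on the same strand.

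*Ss18l1* (ENSMUSG00000039086; chromosome 2, 180042509 to 180070201, plus strand) encodes CREST, the calcium-responsive coactivator that takes the place of SS18 in neurons. It had 3393, 3285, 3232, 2841 and 3385.5 normalised counts in HT 1 to HT 5, and 3162, 3096, 3143, 3274.5 and 3363 in WT 1 to WT 5. HT 4 was the lowest library, at 85.5% of the other HT mean. The log2 fold change was 0.0065 ± 0.056 (SE; 95% interval -0.11 to 0.13), and 0.052 ± 0.038 without HT 4 (exact permutation p 0.937 and 0.127).

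*Phf10* (ENSMUSG00000023883; chromosome 17, 14945009 to 14961273, minus strand) encodes BAF45A, a progenitor subunit that is also part of the PBAF form of the complex. It shares its chromosome with the edited gene and lies 9.60 Mb beyond the end of *Arid1b*. Its normalised counts were 2162, 2043, 2083, 1938.5 and 2205 in HT 1 to HT 5, and 2095, 2109.7, 1958, 2068 and 2111.5 in WT 1 to WT 5. HT differed from WT by a log2 fold change of 0.012 ± 0.049 (SE; 95% interval -0.095 to 0.12; exact permutation p 0.754), and by 0.038 ± 0.042 without HT 4 (exact permutation p 0.310). A share of 21.1% of its 31-base words lay in *1600012H06Rik* on the opposite strand, a gene with a log2 fold change of -0.039.

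*Dpf2* (ENSMUSG00000024826; chromosome 19, 5896516 to 5913010, minus strand) encodes BAF45D, the most widely expressed member of its family. It ranged from 1409 to 1514.5 normalised counts in HT (median 1436) and from 1405.5 to 1565 in WT (median 1428), and had the smallest spread of the 8 in HT (coefficient of variation 2.74%). HT 4 differed little from the others here, at 98.8% of the other HT mean. The log2 fold change was -0.017 ± 0.049 (SE; 95% interval -0.12 to 0.089; exact permutation p 0.698), and -0.013 ± 0.048 without HT 4 (exact permutation p 0.770).

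*Dpf1* (ENSMUSG00000030584; chromosome 7, 29303951 to 29318243, plus strand) encodes BAF45B, the neuronal form. It had 2939, 3021, 2990.4, 2649.8 and 3192 normalised counts in HT 1 to HT 5, and 2868, 3082, 3042.5, 2970.2 and 3067 in WT 1 to WT 5. HT 4 was the lowest of the 10 and HT 5 the highest. The log2 fold change was -0.025 ± 0.053 (SE) with all libraries and 0.014 ± 0.040 without HT 4 (exact permutation p 0.667 in both cases).

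*Dpf3* (ENSMUSG00000021221; chromosome 12, 83213745 to 83487716, minus strand) encodes BAF45C. It was the most variable member, with 283, 306, 310, 175 and 251 normalised counts in HT 1 to HT 5, and 341, 235, 301, 322 and 226 in WT 1 to WT 5. The coefficient of variation was 20.96% in HT and 18.2% in WT, against 2.74% to 17.8% for the other 7 genes in HT and 2.94% to 9.46% in WT. HT 4 was the lowest library, at 60.8% of the other HT mean. Between genotypes the log2 fold change was -0.11 ± 0.17 (SE; 95% interval -0.47 to 0.25), and 0.028 ± 0.13 without HT 4 (exact permutation p 0.587 and 0.857).

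**Figure D2:**
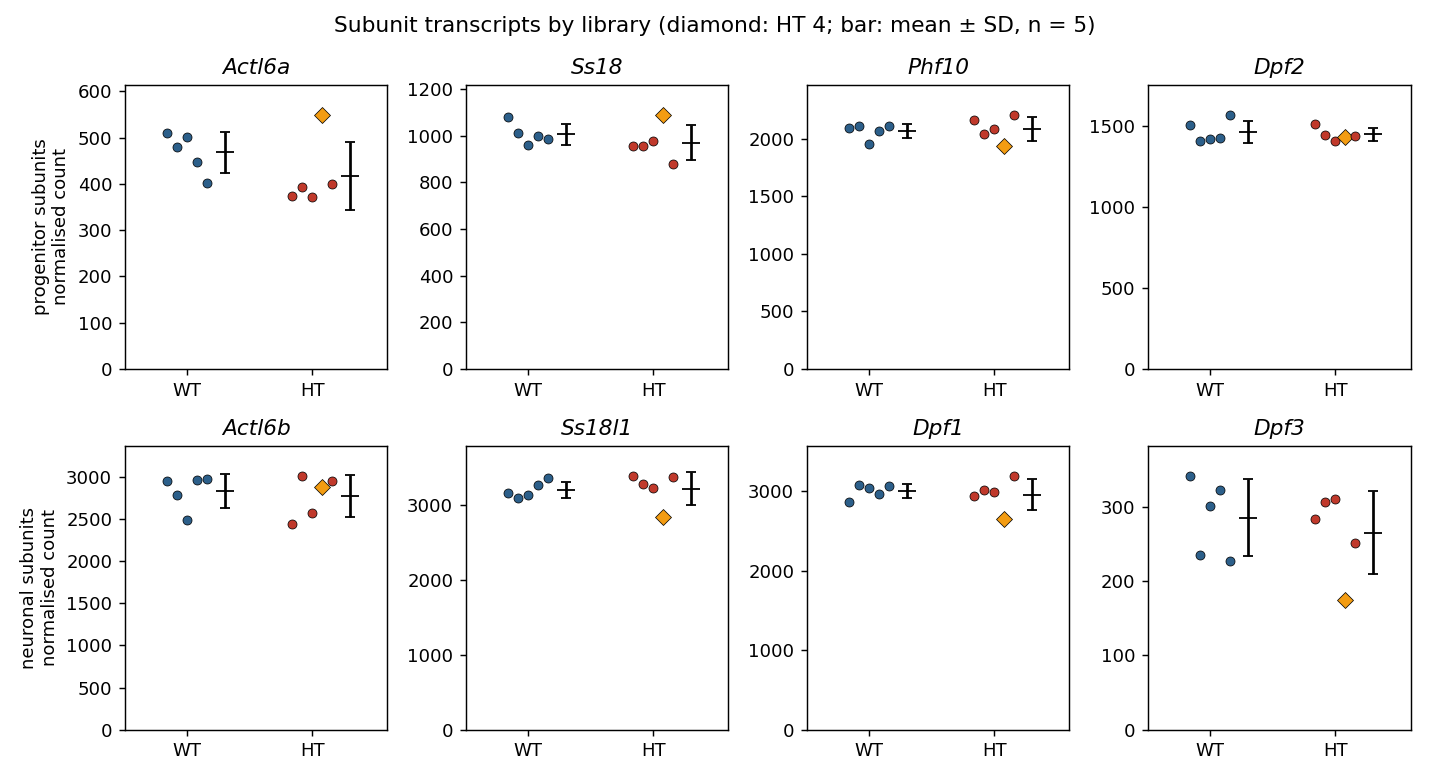
Normalised counts of the 8 subunit genes in each library, WT in blue and HT in red, with HT 4 as an orange diamond and bars for mean ± SD (n = 5). The top row holds progenitor and the bottom row neuronal subunits, and the axes start at 0. HT 4 is the highest library for *Actl6a* (548) and *Ss18* (1088) and the lowest for *Ss18l1* (2841), *Dpf1* (2649.8), *Dpf3* (175) and *Phf10* (1938.5).

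**Figure D3:**
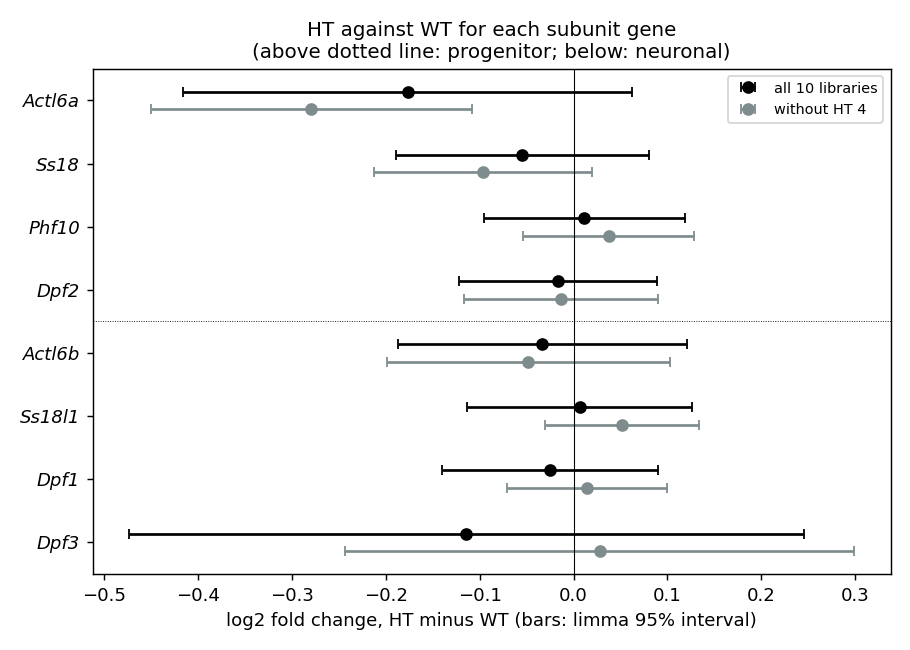
Log2 fold change of HT minus WT for each subunit gene with its limma 95% interval, with all 10 libraries (black) and without HT 4 (grey). With all libraries each interval includes 0, and without HT 4 the interval of *Actl6a* (-0.45 to -0.11) does not.

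Ratios within a library compare a neuronal subunit with the progenitor subunit that it replaces in the same RNA. The fixed length assigned to a gene cancels when genotypes are compared. A trend with length that differs between libraries, such as that of HT 4, does not cancel. A total of 6 ratios was tested by exact permutation, with Benjamini-Hochberg adjustment over the 6. With all libraries none passed, and none had an unadjusted p under 0.05 (smallest adjusted p 0.771). The *Actl6b* to *Actl6a* ratio of normalised counts was 6.54, 7.62, 6.91, 5.24 and 7.38 in HT 1 to HT 5, and 5.79, 5.78, 4.96, 6.60 and 7.39 in WT 1 to WT 5. HT 4 was the lowest HT library, and the other 4 lay in the upper part of the WT range or, for HT 2, just above it. The log2 ratio was higher in HT by 0.14 ± 0.14 (SE, exact permutation p 0.325), and by 0.23 ± 0.12 without HT 4 (exact permutation p 0.111).

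The *Ss18l1* to *Ss18* ratio was 3.54, 3.44, 3.30, 2.61 and 3.85 in HT 1 to HT 5, and 2.92, 3.06, 3.27, 3.28 and 3.41 in WT 1 to WT 5. The lowest of the 10 libraries was HT 4. The log2 difference was 0.061 ± 0.10 (SE, exact permutation p 0.532) with all libraries. Without HT 4 it was 0.15 ± 0.061, with an exact permutation p of 0.0397 that became 0.238 when adjusted over the 6 ratios.

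None of the 4 BAF45 ratios passed either. The log2 difference was -0.037 ± 0.038 for *Dpf1* to *Phf10*, -0.0083 ± 0.061 for *Dpf1* to *Dpf2*, -0.13 ± 0.19 for *Dpf3* to *Phf10* and -0.097 ± 0.199 for *Dpf3* to *Dpf2* (SE), with exact permutation p of 0.389, 0.881, 0.5 and 0.643. Without HT 4 the differences were -0.024 ± 0.040, 0.027 ± 0.056, -0.0097 ± 0.17 and 0.041 ± 0.16 in the same order, so that both ratios to *Dpf2* changed sign, and the adjusted exact permutation p was 0.937 for each. The *Dpf1* to *Phf10* ratio had the smallest spread, from 1.36 to 1.55 over the 10 libraries including HT 4 (1.37). The *Dpf3* ratios were the widest, and the *Dpf3* to *Phf10* ratio ran from 0.0906 (HT 4) to 0.163 (WT 1). These ratios share genes and are not independent of each other.

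**Figure D4:**
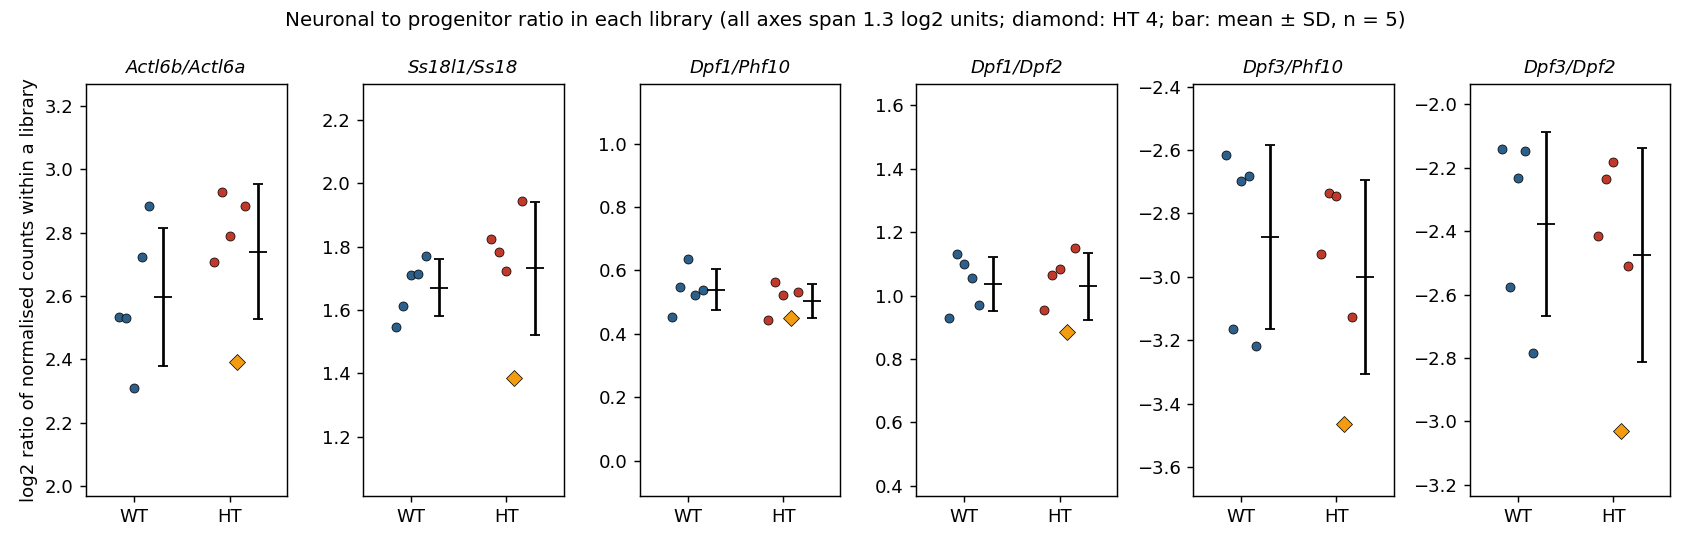
Log2 ratio of neuronal to progenitor subunit within each library for 6 pairs, WT in blue, HT in red and HT 4 as an orange diamond, with bars for mean ± SD (n = 5). Every axis spans the same number of log2 units. HT 4 is the lowest HT library in 5 of the 6 panels, and the groups overlap in all 6.

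Over all 8 genes, the mean log2 value of the neuronal side minus that of the progenitor side was 0.625 ± 0.187 in HT, compared with 0.607 ± 0.0623 in WT (SD, n = 5 for both). HT 4 stood at 0.299, and the other 9 libraries at 0.528 to 0.760. Without HT 4 the HT mean was 0.707 ± 0.0497 (SD, n = 4). These means are given as a description, with no test.

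The subunits did not all vary together across the 10 libraries. As a description over 10 libraries that share differences in length and GC content, Pearson's r was 0.69 between the progenitor genes *Actl6a* and *Ss18* (0.56 over 9 without HT 4) and -0.83 between *Actl6a* and *Ss18l1* (-0.78). It was -0.81 between *Dpf1* and *Ss18* (-0.75). For the progenitor gene *Phf10* it was -0.65 with *Actl6a* (-0.47) and -0.52 with *Ss18* (-0.28). With the neuronal genes *Ss18l1* and *Dpf1* it was 0.76 (0.59) and 0.60 (0.24) for *Phf10*. Between the partners *Actl6a* and *Actl6b* it was 0.17 (0.12), so that the 2 forms of the BAF53 position varied nearly separately. Between *Dpf1* and *Dpf3* it was 0.33 with HT 4 and -0.73 without.

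Of all other genes, those most like *Actl6a* across the 10 libraries were *6530411M01Rik* (r 0.95), *Anxa6* (0.95) and *Spdl1* (0.93), the last a protein of the mitotic kinetochore. Those most like *Ss18* were *Nbn* (0.95), a DNA break sensor, *Cdk1* (0.95), the kinase that starts mitosis, and *Pole3* (0.93), a DNA polymerase subunit. For *Dpf1* they were *Mpped1* (0.97), *Brinp2* (0.95) and *Tbr1* (0.95), the last a factor of deep-layer cortical neurons, and for *Ss18l1* *Psd2* (0.98), *Ccdc39* (0.96) and *Wdr19* (0.96). For *Actl6b* they were *Slc4a11* (0.95), *Nudt8* (0.90) and *Glis1* (0.88), for *Phf10* *Mzf1* (0.94), *Pnlip* (0.93) and *Nat10* (0.92), and for *Dpf3* *5830417I10Rik*, *Raph1* and *Gm38248* (0.96 each). For *Dpf2* they included *Safb2* (0.91) and *Cbx7* (0.88). Without HT 4, the r of the genes named here ran from 0.83 (*Tbr1* with *Dpf1*) to 0.95 (*Slc4a11* with *Actl6b*). An r above 0.9 was found with 107 genes for *Dpf3* and 98 for *Ss18l1*, which became 16 and 8 over 9 libraries without HT 4, and with 10 for *Actl6a*, which became 12. With all libraries it was found with 21 genes for *Dpf1*, 12 for *Ss18*, 5 for *Phf10* and 2 each for *Actl6b* and *Dpf2*. Without HT 4 these became 9, 10, 6, 6 and 3. The genes named have the highest r among all tested genes and are given with no test.

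Markers of the cells that carry each form were set beside the subunits. Of 16 genes of neural progenitors and dividing cells, 15 had a log2 fold change below 0 (median -0.13), and *Nes* and *Mki67* had an unadjusted limma p under 0.05 (0.0287 and 0.0492), while none of the 16 passed after adjustment. Over all genes, 53.6% were below 0 and 3.41% had such a p. *Nes*, an intermediate filament of radial glia, stood at 1604.5 ± 185 normalised counts in HT against 1812.5 ± 74.6 in WT (SD, n = 5 for each genotype). *Mki67*, a marker of cycling cells, stood at 1457 ± 276 against 1820.2 ± 314, and *Notch1*, a receptor that keeps progenitors undifferentiated, at 1411 ± 112 against 1604 ± 208 (unadjusted limma p 0.0637). Without HT 4 all 16 were below 0 (median -0.20), and 4 had an unadjusted p under 0.05, where 50.4% and 8.40% of all genes did. The summed level of the list ran from 14103 (HT 5) to 21303 (HT 4) in HT and from 17020 (WT 5) to 20029 (WT 3) in WT. HT 4 was thus the highest library for these markers as it was for *Actl6a* and *Ss18*. For the other progenitor subunits it was not, being the lowest library for *Phf10* (1938.5 normalised counts). *Dpf2* in HT 4 stood at 98.8% of the other HT mean. The part of these markers in the *Actl6a* values was not tested.

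Of 16 markers of postmitotic neurons, 8 were above and 8 below 0 (median 0.0057), and none had an unadjusted p under 0.05. Without HT 4, 14 were above and 2 below 0 (median 0.034), where 50.4% of all genes were below. In that fit 2 of the 16 had an unadjusted p under 0.05, a share near the 8.40% of all genes. With all libraries the 3 with the smallest p were the neurofilament *Nefl* (log2 fold change 0.17, unadjusted limma p 0.0520), *Neurod2* (-0.081, 0.243) and *Syp* (0.083, 0.273). The summed level ran from 328330 (HT 4) to 375510 (HT 5) in HT and from 348850 to 357030 in WT. HT 4 was the lowest library for the neuronal markers and for the mean of the 4 neuronal subunits. In HT 4, *Dpf3*, *Ss18l1* and *Dpf1* stood at 60.8%, 85.5% and 87.3% of the other HT mean, and *Actl6b* at 105%.

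**Figure D5:**
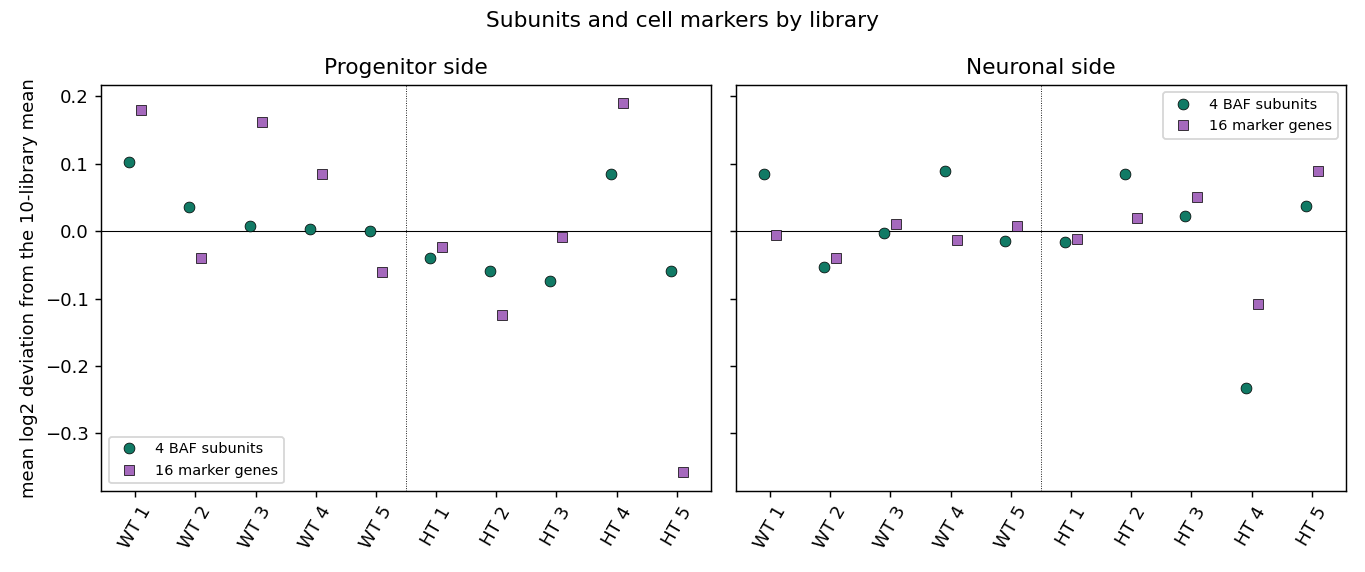
Mean log2 deviation from the 10-library mean, by library, for the 4 progenitor subunits and 16 progenitor markers (left) and for the 4 neuronal subunits and 16 neuron markers (right). HT 4 is the highest HT library for both progenitor measures and the lowest library for both neuronal measures, whereas HT 5 is the lowest for the progenitor markers.

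Known regulators of the switch were examined from a list of 15 symbols, of which 13 were measured. None had an unadjusted limma p under 0.05, 3 were above and 10 below 0, and the median log2 fold change was -0.066. Of all genes, 3.41% had such a p and 53.6% were below 0, with a median of -0.0074. *Rest* itself averaged 341 ± 35.2 normalised counts in HT, compared with 358 ± 45.4 in WT (SD, n = 5 per genotype). The host transcripts of miR-124, *Mir124a-1hg* and *Mir124-2hg*, had log2 fold changes of 0.078 and 0.094, and those of miR-9, *Mir9-3hg* and *C130071C03Rik*, of -0.079 and -0.12. The REST phosphatase *Ctdspl* (-0.11, unadjusted limma p 0.122) and the splicing repressor *Ptbp1* (-0.11, 0.136) had the smallest p, followed by *C130071C03Rik* (0.151). Without HT 4, *Ptbp1* (-0.14, unadjusted limma p 0.0412) and the CoREST family gene *Rcor2* (-0.21, 0.0141) had an unadjusted p under 0.05. *Rcor2* is named because of this value. These were 2 of 13 genes, where 8.40% of all genes had such a p, and the median over the 13 was -0.054. Both had an adjusted limma p above the threshold (0.577 and 0.481).

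The other 22 BAF subunit genes on the list were all measured, and 17 were below and 5 above 0 with a median of -0.027. Over all genes, 53.6% were below 0 and the median was -0.0074. None of the 22 passed after adjustment with all libraries. *Arid1b* (-0.68) and *Brd7* (0.15), a PBAF subunit, had an unadjusted limma p under 0.05 (2.29e-05 and 0.0447). Such a p was found for 3.41% of all genes. The next was *Smarcd3* (0.093, 0.0588), a BAF60 form of neurons and muscle. Without HT 4, *Arid1b* passed (adjusted limma p 2.52e-04), as did 0.0118% of all genes. The median over the 22 was then 0.017, with 16 above 0, where 50.4% of all genes were below 0. Of 11 genes of attached tissue (blood, choroid plexus, meninges), 4 were above and 7 below 0. Of these, 2 choroid plexus genes, *Ttr* and *Folr1*, had an unadjusted limma p under 0.05, where 3.41% of all genes had one, both lower in HT (-0.46 and -0.56), followed by the fibroblast gene *Lum* (-0.47, 0.0579). The 4 genes above 0 were the red blood cell genes *Hba-a1*, *Alas2*, *Hba-a2* and *Hbb-bs* (0.41 to 0.49), named after their values were seen. Without HT 4 the list again had 4 above and 7 below 0 (median -0.39), and 3 had an unadjusted p under 0.05, all lower, where 8.40% of all genes had one. The summed level of that list ran from 22477 to 32438 in HT and from 26304 to 48444 in WT.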

How the data were processed

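The authors quantified paired-end reads of poly-A-selected libraries with Salmon 1.1.0 on GRCm38 with GC bias correction, imported gene-level estimates with tximport, and divided them by DESeq2 1.30.1 size factors. The deposited signal values are these normalised read counts, 1 per gene and library; the annotation release is not given in the sources used here. Of 18444 genes, 18431 matched GENCODE M21 (GRCm38), the source of symbols, positions, lengths and 3′ UTRs. Because the values are not whole numbers, no count model was fitted. The 18444 genes together held 25112000 to 31288000 assigned reads per library, as estimated from the spacing of small values. Reads not assigned to these genes are not counted. Errors are the spread among libraries.

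For the 17020 genes with a mean of at least 10, log2(value + 1) was fitted with limma 3.58.1 (trend, robust, no covariates) under R 4.3.3. P-values were adjusted by Benjamini-Hochberg across these genes, and 0.05 was the threshold. Fold changes on this scale understate the change of low genes. Single genes and 6 ratios were compared by two-sided exact permutation over 252 assignments of libraries (smallest possible p 0.00794). The ratios are differences of log2(value + 1). The workflow was tested on simulated data. Shared 31-base words were counted on both strands of GENCODE transcripts. The members and gene lists were chosen with earlier results of these data known. Besides the members, the rule named *Arid1b*, the 3 genes of each list with the smallest p, genes past the threshold, and the 3 genes most correlated with each member, 1 of which is not reported here. Alternatives covered the pseudocount, normalisation, length and GC trend, filter, sample weights, robust step, replicate block and each library left out.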

Additional observations from a re-analysis of the deposited data

Results flagged for a closer look

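Within each group of 5 libraries, the distance of an extreme library to the one next to it was divided by the whole range of the 5, and ratios above 0.71 were singled out (Dixon's criterion). Of 36 groups checked (8 genes, 6 ratios, 3 shares and the mean difference between sides, in HT and in WT), 3 exceeded it, where about 1.8 would by chance. The groups are not independent, because the ratios, shares and mean difference are built from the same 8 genes. The mean difference flagged below includes *Actl6a*, which is flagged as well. In HT, *Actl6a* had a ratio of 0.841, with HT 4 at 548 normalised counts against 371 to 399 in the other 4. The mean of the neuronal side minus the progenitor side had a ratio of 0.739 in HT, with HT 4 at 0.299 against 0.640 to 0.760. In WT, *Phf10* had a ratio of 0.718, with WT 3 at 1958 against 2068 to 2111.5. WT 3 also had the highest level of the fibroblast collagen *Col1a1* (17074 normalised counts, against 1880.5 to 5249 in the other 9 libraries), named after its values were seen. *Col1a2* and *Lum* were highest there too. *Col3a1* and *Dcn* were highest in WT 2 (3686 and 857.5, against 3508 and 764 in WT 3). The choroid plexus and red blood cell genes on the list were highest in other libraries. The part of attached tissue in the *Phf10* value of WT 3 was not tested.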

How the results depend on the processing

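The number of members past the threshold was 0 under each of 21 alternatives, and over all genes it moved from 0 to 2 without HT 4, with sample weights, with the length and GC trend removed, and with that trend removed and HT 4 left out (an alternative chosen after seeing the data). *Actl6a* and *Ss18* kept their direction under all 21, with log2 fold changes from -0.28 (without HT 4) to -0.14 (without HT 3) and from -0.096 to -0.019 (without HT 5), and *Actl6a* had adjusted limma p from 0.446 to 1. Leaving out single libraries moved the log2 fold change from -0.079 to 0.011 for *Actl6b*, -0.0088 to 0.038 for *Phf10*, -0.053 to 0.014 for *Dpf1*, -0.033 to 0.0075 for *Dpf2*, -0.19 to 0.028 for *Dpf3* and -0.012 to 0.052 for *Ss18l1*. *Ss18l1* was -0.00010 with equal library totals, and *Dpf1* 0.014 with sample weights. With the trend removed and HT 4 left out, *Dpf1* was 0.048, *Dpf3* 0.0496, the *Dpf1* to *Dpf2* ratio 0.048 and the *Dpf3* to *Dpf2* ratio 0.0497. With single libraries left out, the log2 difference ran from -0.039 to 0.027 for *Dpf1* to *Dpf2*, -0.1997 to 0.041 for *Dpf3* to *Dpf2*, 0.072 (without WT 3) to 0.23 for *Actl6b* to *Actl6a* and 0.0079 (without HT 5) to 0.15 for *Ss18l1* to *Ss18*. The *Actl6b* to *Actl6a* difference was 0.26 with the trend removed and HT 4 left out. None of the 6 ratios passed under the alternatives run (17 with the replicate block, whose sign-flip test cannot give a p below 0.0625 and so could not pass), and the cause of the sign changes was not tested.

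Transcript length moved the neuronal shares by construction. With the longest coding transcript they were 89.4% (HT) and 88.4% (WT) for BAF53, 75.98% and 75.3% for SS18, and 44.6% and 45.2% for BAF45. With the union of exons they were 85.8% and 84.6%, 87.7% and 87.3%, and 48.6% and 49.2%. With the replicate number as a block, 0 genes passed, and the *Actl6a* log2 fold change was -0.18 (unadjusted limma p 0.166). The labels give these numbers only as replicates. Correlations of same-numbered deviations ran from -0.10 (HT 4) to 0.093. Of 5 HT libraries, 4 (all but HT 4) correlated best with the WT library of their own number. Whether the numbers pair the samples was not tested. Depth is a limit for low genes, and *Dpf3*, the lowest member, had at least 175 normalised counts per library.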
